A study of Mus musculus with 2 samples.

Results

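The mir-23/27/24 genes form a pair of paralogous miRNA clusters, cluster b on chromosome 13 with Mir23b, Mir27b and Mir24-1, and cluster a on chromosome 8 with Mir23a, Mir27a and Mir24-2. Members were taken by symbol from GENCODE M21 and matched to the count tables by gene identifier without its version. Of 6 members 5 had a count, out of 1973 miRNA loci in all, and Mir24-1 was not analysed here. All 5 passed the minimum of 10 reads in each library, as did 397 loci of the series. The tissue was midbrain of B6NCrl mouse embryos at 14.5 days, with no allele or agent named, in 1 group of 2 biological replicates. According to the labels a replicate was 1 midbrain, dissected on its own day, but both carry the same pup number, pregnancy number and donor identifier, and the sex is given as pooled. SDs here therefore measure the spread between 2 samples, which may be technical in part. With 1 group there was no contrast between conditions, and 2 libraries allow no permutation p under 0.05.

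A cluster of this kind is transcribed as a single primary RNA, and Drosha and Dicer cut its hairpins into mature miRNAs of either arm, called 5p and 3p. The miR-23 and miR-27 families are known for roles in blood vessel growth and have been described as repressors of pro-apoptotic genes in neurons, and miR-24 is known to repress cell cycle genes in differentiating cells. A mature miRNA finds its targets mainly through its seed, bases 2 to 8, so that paralogs with the same seed are expected to share many targets.

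In GENCODE M21 on assembly mm10, Mir23b lay at chr13:63300484-63300557, Mir27b at chr13:63300712-63300784 and Mir24-1 at chr13:63301208-63301275, all on the plus strand. Mir23a lay at chr8:84208518-84208592, Mir27a at chr8:84208672-84208758 and Mir24-2 at chr8:84208815-84208921, also on the plus strand. The order of the families was the same in both clusters, but cluster b spanned 792 nt and cluster a 404 nt. The gap between the miR-27 and miR-24 hairpins was 423 nt in cluster b and 56 nt in cluster a. Cluster b lies within 2010111I01Rik, the aminopeptidase gene now called Aopep, on the same strand, and within Fancc, a Fanconi anaemia gene, on the opposite strand. Mir23b was intronic in all 9 transcripts of 2010111I01Rik that span it, whereas Mir27b overlapped an exon of 1 of 9 and Mir24-1 an exon of 4 of 11. Mir23a and Mir27a overlapped no other annotated gene, and Mir24-2 shared its last 2 nt with the noncoding gene Gm26532. An annotated miRNA gene stood opposite each miR-24 hairpin, Mir3074-1 in cluster b and Mir3074-2 in cluster a.

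**Figure D1:**
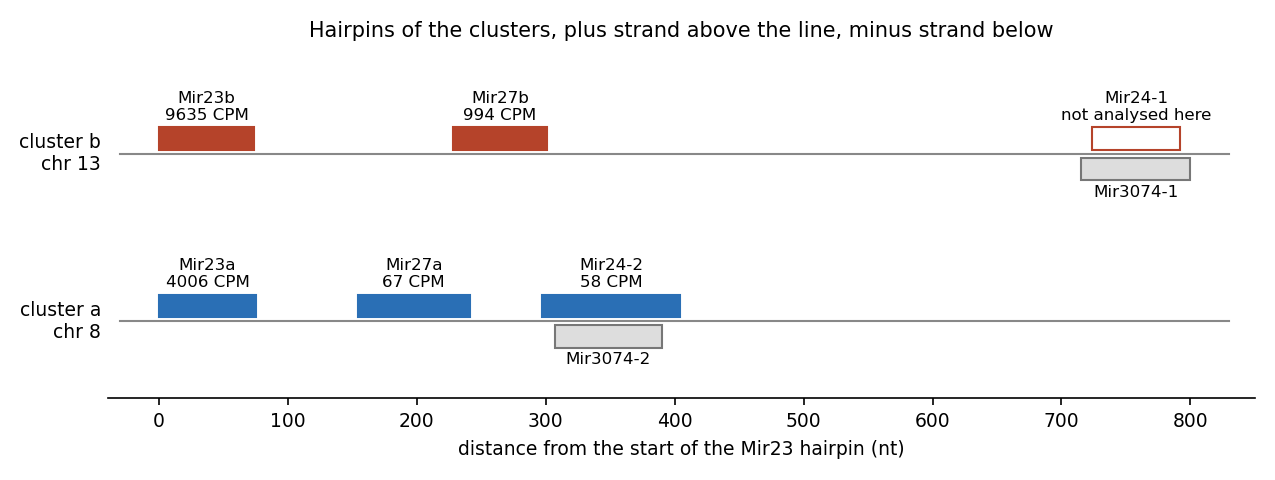
Positions of the hairpins, as distance in nt from the start of the Mir23 hairpin, with cluster b above cluster a; filled boxes carry the mean sense CPM over the 2 replicates, open and grey boxes have no level drawn. Cluster b spans 792 nt against 404 nt for cluster a, and the miR-23 hairpin has a higher level than the miR-27 hairpin in each.

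The hairpins of the paralogs are printed because how far a read can be told apart between the clusters depends on them. Capitals mark the longest stretch that a hairpin shares with its paralog, and sequences are from RefSeq on GRCm38.p6, which held all 6 hairpins.
Mir23b: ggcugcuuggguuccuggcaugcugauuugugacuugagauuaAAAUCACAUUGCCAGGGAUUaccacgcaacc
Mir23a: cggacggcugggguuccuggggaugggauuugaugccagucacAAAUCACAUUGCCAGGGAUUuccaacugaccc
Mir27b: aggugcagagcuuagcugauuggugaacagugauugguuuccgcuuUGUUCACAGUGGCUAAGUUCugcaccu
Mir27a: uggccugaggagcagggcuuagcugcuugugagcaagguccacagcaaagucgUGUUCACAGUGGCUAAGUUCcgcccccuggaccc
Mir24-1: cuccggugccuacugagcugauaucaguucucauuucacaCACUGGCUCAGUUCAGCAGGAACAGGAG
Mir24-2: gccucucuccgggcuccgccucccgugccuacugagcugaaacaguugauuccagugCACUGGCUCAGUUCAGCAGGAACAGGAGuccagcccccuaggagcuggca
The shared stretch was 20 nt in the miR-23 pair, 20 nt in the miR-27 pair and 28 nt in the miR-24 pair, and in each it lay on the 3p side of the hairpin. Over the whole hairpin, the identity in a global alignment was 73.8% for Mir23b and Mir23a, 61.1% for Mir27b and Mir27a and 54.5% for Mir24-1 and Mir24-2. Gap columns count as differences, so unequal annotated lengths lower these values. For the miR-24 pair, 60 of 110 columns were identical, with hairpins of 68 nt for Mir24-1 and 107 nt for Mir24-2. The predicted folding energies were -28.8, -39.5 and -26.3 kcal/mol for Mir23b, Mir27b and Mir24-1, and -32.6, -36.6 and -49.0 kcal/mol for Mir23a, Mir27a and Mir24-2. They are for the annotated lengths, in the same order 74, 73 and 68 nt, and 75, 87 and 107 nt.

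The mature 3p arms show which paralogs share a seed, given in capitals.
miR-27b-3p: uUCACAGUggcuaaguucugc
miR-27a-3p: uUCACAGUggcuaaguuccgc
miR-23a-3p: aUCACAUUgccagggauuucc
miR-24-3p: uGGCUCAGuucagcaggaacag
miR-128-3p: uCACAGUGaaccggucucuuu
The arms miR-27a-3p and miR-27b-3p differed by the single substitution C19U, counted from 1 at the 5′ end with the miR-27a base first, and shared their seed. A read that starts at the 5′ end of either arm needs at least 19 nt to fit only 1 of 2202 annotated miRNA hairpins, and the same length was needed for miR-23a-3p. The arm miR-24-3p was identical in Mir24-1 and Mir24-2, so that no length separates them. The bases CACAGUG at positions 3 to 9 of miR-27 are the seed of miR-128, a neuronal miRNA, which makes their seeds overlap at an offset of 1 base. Of the mature sequences in the RefSeq table, only miR-27a-3p and miR-27b-3p had the miR-27 seed, while 4 others shared that of miR-24. Those 4 loci, Mir6413, Mir6410, Mir6369 and Mir5124b, had 0 reads in both libraries.

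On the 5p side the miR-24 hairpins can be told apart, and capitals mark where their arms part.
miR-24-1-5p: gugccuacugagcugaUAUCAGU
miR-24-2-5p: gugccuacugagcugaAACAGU
The arms shared their first 16 nt, and a read from the 5′ end needs 17 nt to fit 1 hairpin only. The count tables give 1 number per hairpin and do not separate 5p from 3p reads.

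Sense reads at miRNA loci, those on the strand of the gene, numbered 7302633 for replicate 1 and 3966727 for replicate 2. Levels are given as CPM, counts scaled to these totals. A single read was worth 0.137 CPM in replicate 1 and 0.252 CPM in replicate 2. Reads mapping to several places, 36.2% of all reads in replicate 1 and 36.9% in replicate 2, were tallied apart from the genes, so that a read fitting both paralogs equally is in neither count. Intervals cover counting error only. Mature products of these loci are 21 to 23 nt long, and counts of different loci were compared without division by length. Of the neural miRNAs used to check the tissue, 10 of the 12 with a count passed the minimum and none was at 0. Their sums were 22181 CPM in replicate 1 and 26259.9 CPM in replicate 2, mostly from Mir137 and Mir153. Counted without reads that fit several places, Mir124a-1, Mir124a-2 and Mir124a-3 had means of only 6.66, 11.3 and 1.92 CPM. Mir9-2 had 2.09 CPM and Mir9-3 536 CPM.

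Among the miR-23 and miR-27 loci, cluster b gave most of the reads and miR-23 stood above miR-27 in each cluster. No such order is given for miR-24, since Mir24-1 was not analysed here and reads that fit both miR-24 hairpins are in no count. Mir23b, the first hairpin of cluster b, had 75478 and 35442 reads in replicates 1 and 2, or 10336 and 8935 CPM. Its mean of 9635 ± 991 CPM (SD, n = 2) placed it at rank 22 of all loci, and at rank 22 in each library alone. Mir27b, from the middle of cluster b, had 6462 and 4378 reads, or 885 and 1104 CPM, with a mean of 994 ± 155 CPM and rank 90.

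Mir23a, the leading hairpin of cluster a, had 33299 and 13696 reads, or 4559.9 and 3453 CPM, with a mean of 4006 ± 783 CPM and rank 51. Its levels lay between those of Mir23b and Mir27b in both libraries, with no overlap. Mir27a had 503 and 259 reads, or 68.9 and 65.3 CPM, with a mean of 67.1 ± 2.54 CPM and rank 231. Mir24-2, the last hairpin of cluster a, had 454 and 212 reads, or 62.2 and 53.4 CPM, with a mean of 57.8 ± 6.17 CPM and rank 239.

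The order of the counts was Mir23b, Mir23a, Mir27b, Mir27a and Mir24-2 in each library, and only the last pair stood close. The count of Mir24-2 lacks reads that fit both miR-24 hairpins, so its place and share describe this count and not miR-24. Mir24-2 held 47.4% of the reads of Mir24-2 and Mir27a in replicate 1, with a Clopper-Pearson interval (exact, 95%) from 44.2 to 50.7 that includes equal shares, and 45% in replicate 2, with an interval from 40.5 to 49.6 that lies just below them. The means of this pair differed by more than the SD of either, but its order was not resolved by counting error in replicate 1. Together the 5 loci took 1.59% of the sense reads in replicate 1 and 1.36% in replicate 2. Of this sum Mir23b held 65.3% ± 0.489, Mir23a 27% ± 2.33, Mir27b 6.84% ± 1.8, Mir27a 0.456% ± 0.0331 and Mir24-2 0.392% ± 0.00139 (SD, n = 2).

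**Figure D2:**
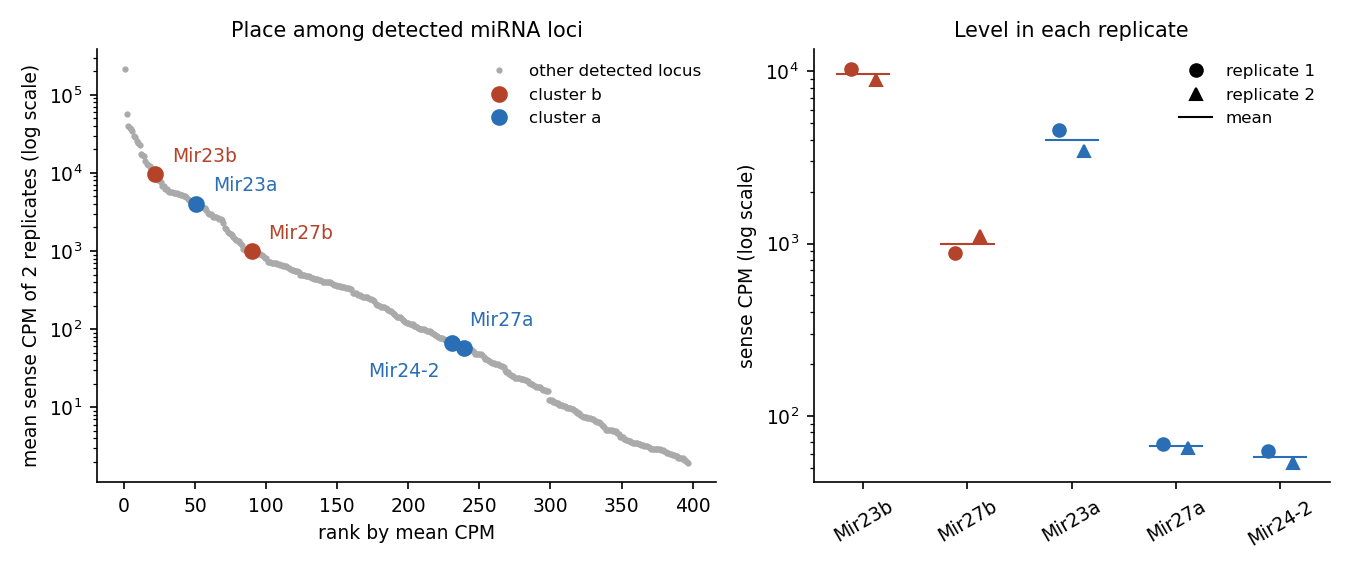
Left, mean sense CPM (log scale) of the 397 detected loci by rank, with cluster b in red and cluster a in blue; right, sense CPM (log scale) of each member in replicate 1 (circle) and replicate 2 (triangle), with the mean as a line. Mir23b is at rank 22 and Mir24-2, counted without reads that fit both miR-24 hairpins, at rank 239. Mir23b, Mir23a and Mir27b stand apart from each other in both replicates, while Mir27a and Mir24-2 stand close together.

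The loci next to the members in the order of means were not separated from them. Mir181d stood above Mir23b at 10479 ± 757 CPM and Mir125a below it at 9551 ± 1757 CPM. Mir301 and Mirlet7b enclosed Mir23a at 4042 ± 573 and 3926 ± 800 CPM. Mir674 and Mir183 enclosed Mir27b at 1018 ± 30.8 and 983 ± 7.8 CPM. Mir92-2 and Mir19a, from the mir-106a-363 cluster and its growth-associated paralog mir-17-92, enclosed Mir27a at 67.3 ± 7.84 and 66.6 ± 8.17 CPM. Mir1249 and Mir146, a miRNA of innate immune cells, enclosed Mir24-2 at 59.2 ± 8.11 and 57.7 ± 2.08 CPM. Each of these distances was smaller than the larger SD of the loci compared (n = 2 each).

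Cluster b exceeded cluster a in both families that have counts from both, by unequal amounts. Mir23b had 2.27 times the reads of Mir23a in replicate 1 and 2.59 times in replicate 2, a log2 ratio of 1.28 ± 0.14 (SD, n = 2). Mir23b thus held 69.4% of the reads of the pair in replicate 1, with a 95% interval by the exact Clopper-Pearson method of 69.1 to 69.7, and 72.1% (71.7 to 72.5) in replicate 2.

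In the miR-27 family the ratio of Mir27b to Mir27a was 12.8 in replicate 1 and 16.9 in replicate 2, a log2 ratio of 3.88 ± 0.28. Mir27b held 92.8% of the reads of that pair (92.1 to 93.4) in replicate 1 and 94.4% (93.7 to 95.1) in replicate 2. The preference for cluster b was therefore 5.67 times larger in miR-27 than in miR-23 in replicate 1 and 6.53 times larger in replicate 2, a difference of 2.61 ± 0.14 on the log2 scale. Both log2 ratios and their difference were larger than the SD between the replicates. Summed over both families, cluster b had 11221 and 10039 CPM, against 4629 and 3518 CPM in cluster a. Most of each sum was miR-23, with 10336 and 8935 CPM from Mir23b and 4559.9 and 3453 CPM from Mir23a. The sums therefore largely repeat the miR-23 ratio.

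Within a cluster miR-27 was far below miR-23, and more so in cluster a. In cluster b the log2 ratio of Mir27b to Mir23b was -3.55 in replicate 1 and -3.02 in replicate 2, so that Mir23b had 11.7 and 8.1 times the reads of Mir27b. In cluster a the log2 ratio of Mir27a to Mir23a was -6.05 and -5.72, so that Mir23a had 66.2 and 52.9 times the reads of Mir27a. Mir24-2 had a log2 ratio to Mir23a of -6.20 and -6.01, and to Mir27a of -0.15 and -0.29. These ratios rest on a count without the reads that fit both miR-24 hairpins.

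**Figure D3:**
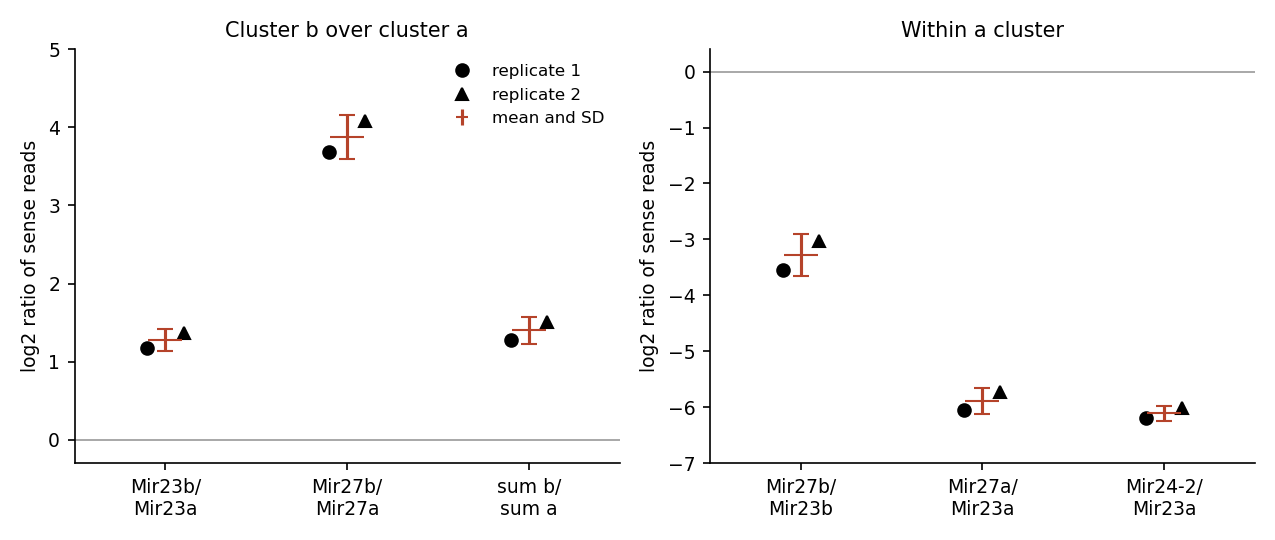
Log2 ratios of sense reads in replicate 1 (circle) and replicate 2 (triangle), with the mean and SD in red; left, cluster b over cluster a for miR-23, miR-27 and their sum; right, ratios within a cluster. All ratios on the left are above 0, at 1.28 for miR-23 and 3.88 for miR-27, and all on the right are below 0.

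The gaps within the clusters were set beside those of other neighbouring miRNA genes. Detected loci on 1 strand with gaps of at most 10 kb formed 44 clusters, in which the highest locus exceeded the lowest by a median of 12.9-fold. Mir23a exceeded Mir24-2 by 69.3-fold, which was rank 14 of 44, and Mir23b exceeded Mir27b by 9.69-fold, rank 25. Among the 35 clusters of 2 or 3 loci the median was 8.38-fold, with the Mir23a cluster at rank 7 and the Mir23b cluster at rank 17. The ranks of these clusters are not alike. That of cluster a uses Mir24-2, whose count lacks reads fitting both miR-24 hairpins, and that of cluster b leaves out miR-24. Without Mir24-2, Mir23a exceeded Mir27a by 66.2-fold and 52.9-fold in replicates 1 and 2. Both values lay between the folds at ranks 13 and 15 of 44, which were 69.6 and 50.3. Loci of other clusters with an identical mature copy elsewhere also lack shared reads, so the folds describe counts.

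Paralogs that differ by 1 base were also set side by side, in a comparison chosen after the values were seen. Among detected loci 17 pairs had mature arms of equal length that differed at 1 base, and the higher locus exceeded the lower by a median log2 ratio of 2.91. The miR-27 pair, at 3.88, was rank 6 of 17. The pairs next to it were Mir19a over Mir19b-2 at 4.30 and Mirlet7b over Mirlet7c-1 at 3.26, and the range ran from 0.16 for Mir29c over Mir29a to 8.11 for Mir107 over Mir103-1. The miR-23 pair, with a log2 ratio of 1.28, was not among these 17, since miR-23b-3p was not analysed here. Pairs share loci, and several of these loci, such as those of let-7c, miR-103 and miR-19b, have identical or near-identical copies. Reads that fit more than 1 copy equally are in no count. The median and the ranks are therefore a description of counts, and the part of such reads in them was not tested.

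The miR-24 arm of the clusters could be counted in part only. Of 87 loci that carry a mature sequence identical to that of another locus, 46 were detected, with a median of 236 CPM, against 313 of 829 loci without such a sequence and a median of 128 CPM. Mir24-2 stood in the lower part of the 46, with 31 of them above it.

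The place of Mir24-1 was covered by the count of Mir3074-1, which overlaps it on the opposite strand in GENCODE M21. That count was 1532 and 853 reads on its annotated strand in replicates 1 and 2, and 85 and 58 reads on the other strand. In replicate 1 the annotated strand held 3.37 times and the other strand 0.187 times the reads of Mir24-2, and in replicate 2 4.02 and 0.274 times. The identifier has a different version in the annotation used for counting, M4, and the strand of this gene in M4 was not known here, so these reads were not assigned to Mir24-1 or Mir3074-1. Mir24-2 had 4 and 2 reads on the strand of Mir3074-2.

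The loci of miR-128, whose seed overlaps that of miR-27, had counts near that of Mir27b and far above that of Mir27a. Mir128-1 had 1069 and 1288 CPM and Mir128-2 671 and 798 CPM. The mature miR-128-3p, the arm with that seed, is identical in both, so that reads fitting both are in neither count. These counts therefore do not give the level of the arm that carries the seed. Mir27b lay between Mir128-1 and Mir128-2 in both libraries, at 885 and 1104 CPM, whereas Mir27a had 68.9 and 65.3 CPM.

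The libraries lay within 1.41-fold of each other at each of the 5 members. In log2(replicate 1/replicate 2) after TMM scaling, Mir23b stood at 0.31, Mir27b at -0.22, Mir23a at 0.50, Mir27a at 0.17 and Mir24-2 at 0.31. The median absolute value was 0.31 for these 5 loci and 0.23 for all 397 detected loci, and Mir23a, the largest, ranked 84 in size of the ratio. An exact two-sided binomial test per locus, adjusted over all 397 loci by Benjamini-Hochberg, separated 53.9% of them between the libraries, 30.0% higher and 23.9% lower in replicate 1. That balance depended on the scaling: plain library totals gave 90 loci higher and 127 lower in replicate 1, against 119 higher and 95 lower with TMM, and put the median of the 397 log2 ratios at -0.09 in place of 0.00. With TMM the test separated 4 of the 5 members. Mir23b, Mir23a and Mir24-2 were higher in replicate 1 (adjusted p 1.02e-240, 2.57e-261 and 0.0178 in the exact binomial test), and Mir27b was lower in replicate 1 (adjusted exact p 1.35e-14). Mir27a did not pass, with an adjusted exact p of 0.192. The test compares these 2 libraries and allows for counting error only. In edgeR's exactTest with a preset biological coefficient of variation of 0.1, 6.55% of loci were called and 0 of the 5 members, with adjusted p between 0.149 and 0.788; 1 member had an unadjusted p under 0.05. For Mir24-2 plain library totals in place of TMM gave a log2 ratio of 0.22 and an adjusted p of 0.125 in the exact binomial test.

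Marker miRNAs of other cell types moved between the same libraries. Endothelial and vessel wall miRNAs summed to 32835 CPM in replicate 1, against 22097 CPM in replicate 2. Of the 6 with a count 5 were detected, 3 of them higher and 1 lower in replicate 1 by the exact binomial test, with a median log2 ratio of 0.60. The same test, which allows for counting error only, separated 53.9% of all 397 detected loci, the share beside which the calls in each list stand. In that list endothelial Mir126a had 27037 and 18011 CPM, smooth muscle Mir143 5423 and 3694 CPM, Mir221 174 and 210 CPM, and Mir145b was at 0.

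Red cell miRNAs summed to 486 CPM in replicate 1, against 153 CPM in replicate 2, with 2 of 3 higher in replicate 1 by that test. Those of white blood cells summed to 462 and 234 CPM, with 3 of 4 detected loci higher. In that list Mir142b had 0 sense reads but 2067 and 551 reads on its opposite strand, which are not in these sums. Mesenchymal miRNAs summed to 320 and 69.1 CPM, with both of the 2 detected loci, Mir199b and Mir214, higher. Neural miRNAs went the other way, with 6 of 10 detected loci lower and 1 higher in replicate 1, and a median log2 ratio of -0.16. Beside these medians, Mir23a stood at 0.50, Mir23b and Mir24-2 at 0.31, Mir27a at 0.17 and Mir27b at -0.22. The part of these cell types in the members' ratios was not tested. In a whole tissue, fewer cells of a type and less RNA per cell cannot be told apart.

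**Figure D4:**
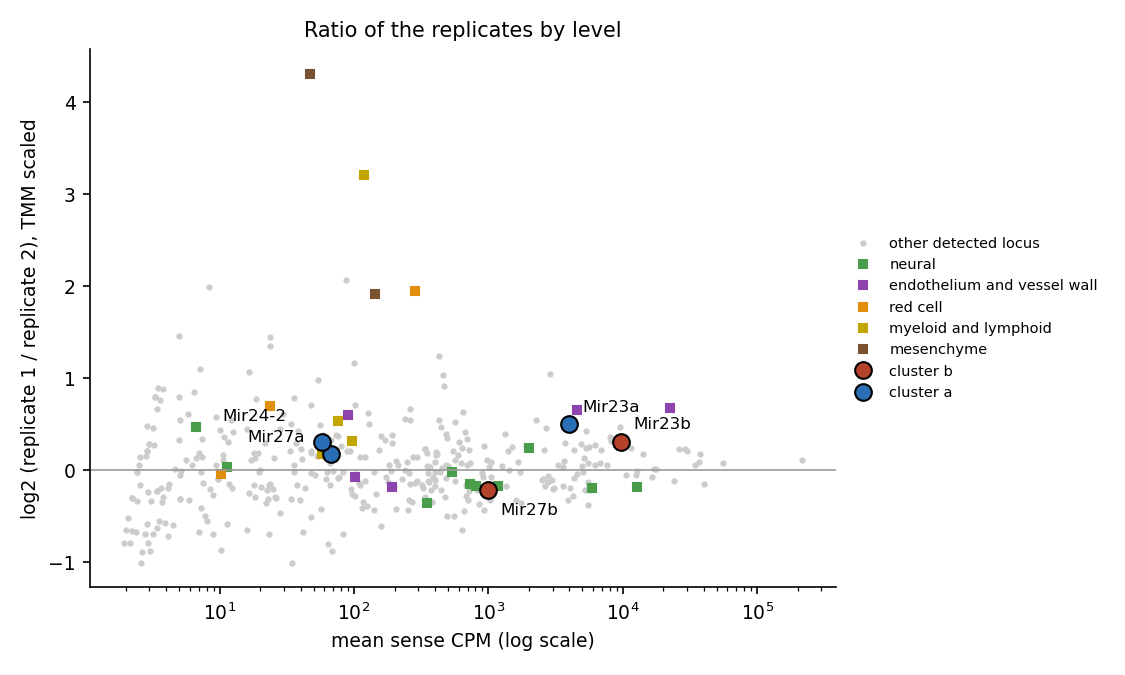
Log2 ratio of replicate 1 to replicate 2 after TMM scaling against mean sense CPM (log scale) for the 397 detected loci, with members of cluster b in red, of cluster a in blue, and marker lists as coloured squares. The members lie between -0.22 (Mir27b) and 0.50 (Mir23a), inside the spread of the other loci.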

How the data were processed

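MicroRNAs were sequenced from embryonic mouse midbrain, and the authors deposited raw read counts per miRNA gene for each of 2 libraries, for both strands together, the annotated strand and the opposite strand. The deposited notes of each library name mm10 as the reference and M4 as the annotation. The aligner, the counter and the strands of genes in M4 were not given in the sources used here. In each library, 4 classes of reads outside genes (58.3% of reads in replicate 1, 57.7% in replicate 2) were left out.

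CPM were computed on the sum of sense counts over all loci, with means and SDs over 2 replicates. Symbols and positions came from GENCODE M21, also on mm10, by identifier without its version (1894 of 1973 matched), and sequences from RefSeq on GRCm38.p6. The libraries were compared at loci with at least 10 reads in each, after TMM scaling (edgeR 4.0.16). An exact two-sided binomial test was made per locus (scipy 1.17.1), with Benjamini-Hochberg adjustment and a threshold of 0.05. The test was run on simulated counts with counting error only and plain totals. That check therefore does not cover TMM scaling or variation between libraries beyond counting error. With 1 library against 1, no quasi-likelihood test could be made. Hairpins were folded with RNAfold (ViennaRNA 2.7.2) and aligned with Biopython 1.88, and copies were searched in annotated miRNA hairpins only. Named loci were the members, the loci next to them in level, overlapping genes, seed relatives and 5 lists of cell type markers, where Mir126b, Mir142 and Mir9-1 were not analysed here. The members and lists were chosen with earlier results of these data known, and the comparisons of clusters, of pairs with 1 base difference and of identical mature sequences after the values were seen. Alternatives were DESeq2 size factors (1.42.0), TMM or plain totals, minimums of 3 reads or none, both strands, a pseudocount of 1 CPM, edgeR's exactTest with a dispersion of 0.01, and each replicate left out.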

Additional observations from a re-analysis of the deposited data

Results flagged for a closer look

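Reads on the opposite strand entered no comparison above except the ratios of the Mir3074-1 count to Mir24-2. They exceeded the 3 reads that a count of 0 allows in both libraries at the Mir3074-1 count, and in replicate 1 only at Mir24-2. The Mir3074-1 count held 85 such reads in replicate 1 and 58 in replicate 2, which was 5.26% and 6.37% of its reads on both strands. Mir24-2 held 4 in replicate 1, 0.873% of its reads, and 2 in replicate 2, under that limit. The other members with counts had at most 1 read on the opposite strand in either library. Their origin was not tested.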

How the results depend on the processing

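With both strands counted, TMM or DESeq2 scaling of levels, and 1 CPM added to ratios, 15 of 15 recomputed levels and 14 of 14 recomputed ratios of the members moved by less than 1 SD. These alternatives could move the values little. Members had at most 4 reads on the opposite strand and means of at least 57.8 CPM, and scaling shifts the 2 libraries in opposite directions. None of them restores reads that fit several places. Leaving out a replicate gives the value of the other, printed with each result, and with 2 replicates it is no test of stability. The count of loci separated between the libraries fell to 26 in edgeR's exactTest with a dispersion of 0.01, 21 higher and 5 lower in replicate 1, against 214, 119 and 95 in the exact binomial test. Plain totals in place of TMM called 217 loci, 90 higher and 127 lower in replicate 1, so that the excess of higher calls became an excess of lower ones. No direction of a member's replicate ratio turned under any alternative. No paired analysis was possible because there was 1 group. Depth limits Mir27a and Mir24-2 most, with 259 and 212 reads in replicate 2. The number of reads fitting several places is not known per member here.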
